A study of Rattus norvegicus with 15 samples.

Results

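A set of 8 genes of myelin and of the oligodendrocytes that make it, Mbp, Mobp, Mag, Mog, Cnp, Mal, Cldn11 and Ugt8, were followed in neurons that had been cut out of 2 neighbouring regions of the rat midbrain. The genes were chosen by symbol, and every probe set that the platform annotation pairs with one of them was taken. On this array each transcript is read by several short probes, whose signals are summarised as 1 probe set. The members had 14 of the 8740 probe sets that are not array controls, and these stood for 7 of the 8 genes, out of 4736 genes that the annotation names singly. Mobp had 4 of them, Mag 3, Mog 2, Ugt8 2, and Mbp, Cnp and Mal had 1 each. No probe set carried the symbol Cldn11, so that gene was not analysed here.

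Per the labels, neurons of the substantia nigra pars compacta (SNc) and of the ventral tegmental area (VTA) were collected by laser capture microdissection, in which a laser cuts chosen cells from a tissue section, and their total RNA was measured. There were 8 arrays of SNc neurons (SNc 1 to SNc 8) and 7 of VTA neurons, whose numbers skip 7. The labels give no strain, age, sex or treatment, do not say how a neuron was recognised, and do not say whether an array stands for 1 animal. A p-value here therefore measures the spread between arrays, which may be technical in part.

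Oligodendrocytes wrap the axons of the central nervous system in myelin, a stack of membrane rich in lipid. Myelin genes are switched on late and together as these cells mature, under the transcription factors SOX10 and MYRF, and their messenger RNAs are among the most abundant in white matter. Mbp RNA is also carried out into the processes of the cell, and alternative golli transcripts of the Mbp gene are made in some neurons. In pooled cells such as these, fewer cells of a type and less RNA per cell cannot be told apart.

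The sequences before the transcription start are shown for 4 members because the members are examined here for moving together. Those of Mag and Cnp hold letters of the binding motifs of both regulators. That of Mobp holds only a SOX motif and that of Mal only a MYRF motif. The RefSeq promoter table of build GRCr8 matched 7 of the 8 members by symbol, all but Mog, with 8 windows because Mbp has 2 start sites. The 250 bases before each start were searched on both strands for ACAAAG and ACAATG, core motifs of SOX factors, and for CTGGCAC and CTGGTAC, forms of the MYRF motif. Capitals mark the matches on either strand. The windows are chr8:128746982-128747231 on the plus strand for Mobp, chr1:95291045-95291294 on the minus strand for Mag, chr10:86011254-86011503 on the plus strand for Cnp and chr3:135341424-135341673 on the minus strand for Mal. They are written 5′ to 3′ along the gene.
Mobp: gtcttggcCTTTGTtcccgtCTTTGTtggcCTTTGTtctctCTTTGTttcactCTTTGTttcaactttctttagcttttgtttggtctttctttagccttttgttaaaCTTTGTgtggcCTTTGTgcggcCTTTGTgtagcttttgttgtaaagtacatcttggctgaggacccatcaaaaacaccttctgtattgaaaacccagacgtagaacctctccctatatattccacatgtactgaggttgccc
Mag: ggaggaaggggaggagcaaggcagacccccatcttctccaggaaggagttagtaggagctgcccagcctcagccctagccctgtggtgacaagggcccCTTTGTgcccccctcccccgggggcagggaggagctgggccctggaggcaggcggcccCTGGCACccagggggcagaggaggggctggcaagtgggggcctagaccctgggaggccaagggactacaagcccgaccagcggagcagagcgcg
Cnp: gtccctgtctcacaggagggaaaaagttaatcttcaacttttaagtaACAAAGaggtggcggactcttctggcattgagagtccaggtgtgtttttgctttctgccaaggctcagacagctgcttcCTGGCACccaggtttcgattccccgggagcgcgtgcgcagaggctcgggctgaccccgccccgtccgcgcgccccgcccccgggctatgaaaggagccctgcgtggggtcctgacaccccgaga
Mal: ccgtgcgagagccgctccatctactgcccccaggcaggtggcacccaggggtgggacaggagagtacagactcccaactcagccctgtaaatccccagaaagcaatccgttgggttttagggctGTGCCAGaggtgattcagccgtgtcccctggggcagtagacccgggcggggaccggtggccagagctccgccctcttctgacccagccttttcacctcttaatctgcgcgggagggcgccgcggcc

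The Mobp window held 8 matches to ACAAAG, in a stretch of repeats, and the Mag and Cnp windows held 1 each. CTGGCAC was found 1 time each in the windows of Mag, Cnp and Mal. A SOX core motif of either form was in 4 of the 8 member windows and in 25.3% of all 33469 windows of the table. A MYRF motif of either form was in 4 of the 8, those of Mag, Cnp, Mal and Cldn11, and in 5.48% of all windows. The second Mbp window held 1 match to ACAAAG and 2 to ACAATG. The first Mbp window and the Ugt8 window held none of these letters. A match is a description of the sequence and was not tested as a site.

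On the arrays, the myelin genes had clear signal in both regions, and no member differed between SNc and VTA past the threshold. Signals are given as deposited, on a linear scale in arbitrary units. Differences are SNc minus VTA of log2(signal + 16), so that a negative value is a higher VTA signal. Of the 14 member probe sets, 11 passed a filter that dropped the dimmest 40%, those with a mean signal under about 26.3. None of the 11 was called by limma at an adjusted p under 0.05 (Benjamini-Hochberg over all 5244 probe sets tested), where 1.98% of all probe sets were called and 1.14% were called higher in VTA. At an unadjusted p under 0.05 there were 2 of the 11, both of Mobp, beside 15.4% of all probe sets. An exact permutation test over arrays, adjusted in the same way, also called 0 members. The SNc and VTA arrays overlapped for all 11, whereas they did not overlap for 0.858% of all probe sets.

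The lean of the members was towards VTA in the deposited scaling, and it was small. Taking each gene by its brightest probe set, 6 of the 7 measured genes had a negative difference and 1, Mal, a positive one, with a median of -0.17. Of all 3221 genes tested, 55.6% had a negative difference, with a median of -0.04, and 29.8% lay below the members' median. With each array centred on its median, 4 of the 7 were negative (41.1% of all genes) and the medians were -0.08 and 0.06. After quantile normalization 5 of the 7 were negative (48.8% of all genes) and the medians were -0.18 and 0.01. The median signal of an array lay between 38.0 and 45.3 in SNc and between 42.3 and 46.8 in VTA, and the part of this shift in the members' lean was not tested beyond these scalings.

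**Figure D1:**
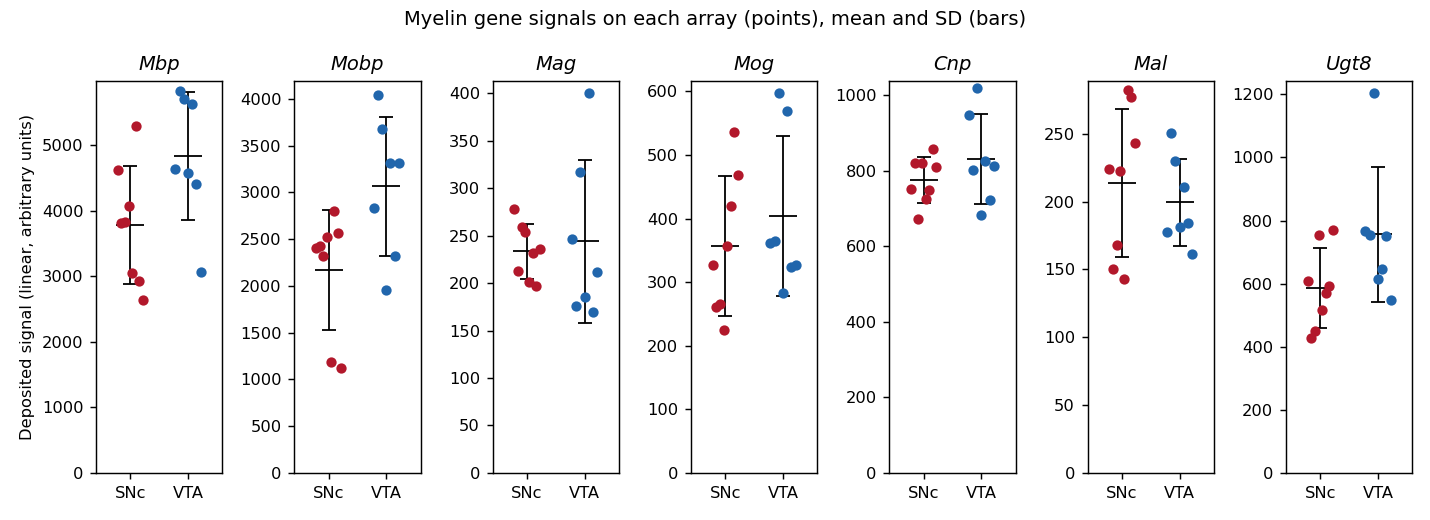
Deposited signal (vertical axis, linear, arbitrary units, from 0) of the brightest probe set of each of the 7 measured genes on the 8 SNc arrays (red) and 7 VTA arrays (blue). Points are arrays and bars are mean and SD; the regions overlap for every gene, and 2 SNc arrays lie far below the other 6 for Mobp.

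Mbp and Mobp make the small basic proteins that hold the cytoplasmic faces of the myelin membrane together. Mbp, by its probe set K00512_at, had a lowest, median and highest signal of 2637, 3826 and 5291 in SNc. In VTA the same values were 3063, 4642 and 5824. The highest SNc array, SNc 6, exceeded 4 of the 7 VTA arrays, and VTA 8 lay among the low SNc arrays. The mean was 3784 ± 898.6 (SD, n = 8) in SNc and 4838 ± 983.4 (SD, n = 7) in VTA. The log2 difference was -0.36 (SE 0.17, 95% interval -0.72 to 0.01, limma adjusted p = 0.331), and 6 of the 7 VTA arrays lay above the SNc mean.

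Mobp had the largest difference of the members. Its brightest probe set, D28111_g_at, had a lowest, median and highest signal of 1118, 2414 and 2798 in SNc and of 1953, 3311 and 4044 in VTA. The SNc arrays formed a tight group from 2320.3 to 2798, apart from SNc 5 at 1189.5 and SNc 8 at 1118. The VTA arrays were spread more evenly, with VTA 4 below the tight SNc group and VTA 6 at its lower end. The signal was 1.44-fold higher in VTA (log2 difference -0.53, SE 0.22, 95% interval of the fold 1.05 to 1.99), with an unadjusted p of 0.0266 and a limma adjusted p of 0.248. The interval of this single probe set lies on the VTA side, but the difference did not pass after adjustment.

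The other Mobp probe sets are named for 2 sequence entries. D28111_at, of the same entry, gave a log2 difference of -0.53 (SE 0.23, adjusted p = 0.264 by limma) and followed D28111_g_at closely over the 15 arrays with region means removed (r = 0.94, rho = 0.96). SNc 5 and SNc 8 were its lowest arrays too, at 495.7 and 371.6. D28110_at, of the other entry, was dim, from 7.63 to 144.6 over all arrays, with a difference of -0.34 (SE 0.40) that ran from -0.59 without VTA 4 to -0.13 without SNc 5. Its correlation with D28111_g_at was 0.59 (rho = 0.61). D28110_g_at lay between 1.80 and 69.2, under the filter, and was not tested in the main comparison. The annotation does not say which splice forms of Mobp each of them reads.

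Mag and Mog make adhesion and surface proteins of the immunoglobulin family, Mag on the inner wrap that faces the axon and Mog on the outermost surface of the sheath. Mag, by M22357_g_at, ran from 196.7 to 277.8 in SNc with a median of 234.0. In VTA it ran from 169.7 to 400.7 with a median of 212.0. The regions overlapped over the whole SNc range, and VTA held both the lowest and the highest array, VTA 6 and VTA 5. The log2 difference was -0.01 (95% interval -0.36 to 0.35), and that of the other tested probe set, X06554cds_s_at, was 0.04 (-0.31 to 0.38). M22357_at, named for the same entry as M22357_g_at, lay between 3.45 and 8.59 on every array and was under the filter.

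Mog, by M99485_at, had a lowest, median and highest signal of 224.1, 341.5 and 535.6 in SNc, and of 283.7, 360.9 and 597.7 in VTA. High Mog arrays were found in both regions, SNc 7 in SNc and VTA 3 and VTA 5 in VTA. The log2 difference was -0.17 (SE 0.20, limma adjusted p = 0.730), and ran from -0.26 without SNc 7 to -0.07 without VTA 3. The dimmer probe set L21995_s_at gave -0.01 (SE 0.18). The 2 Mog probe sets followed each other only loosely over the 15 arrays (r = 0.44, rho = 0.40), as did the 2 tested probe sets of Mag (r = 0.44, rho = 0.40).

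Cnp makes a phosphodiesterase of the cytoplasmic channels of myelin and is switched on early in the lineage. It was the steadiest member. Its signal ran from 670.8 to 855.9 in SNc with a median of 780.4. In VTA it ran from 682.5 to 1019 with a median of 811.9. Only VTA 1 and VTA 3 lay above the SNc range. The log2 difference was -0.09 (SE 0.12), with a 95% interval from -0.34 to 0.17, the narrowest of the 11 probe sets, and it was 0.0036 with each array centred on its median.

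Mal and Ugt8 serve the lipid side of the membrane. Mal makes a proteolipid of raft membranes that also occurs in other polarised cells, and Ugt8 makes the enzyme that adds galactose to ceramide, the step that gives galactocerebroside. Mal ran from 142.9 to 281.9 in SNc with a median of 223.2. In VTA it ran from 161.7 to 250.4 with a median of 184.1, inside the SNc range. Its log2 difference of 0.07 (SE 0.16, limma adjusted p = 0.885) was the only positive one among the genes' brightest probe sets.

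Ugt8, by rc_AI228110_s_at, had a lowest, median and highest signal of 426.1, 581.4 and 769.1 in SNc, and of 549.7, 752.2 and 1203 in VTA. VTA 3 stood above all other arrays, and the rest of VTA lay within the SNc range. The signal was 1.27-fold higher in VTA (log2 difference -0.35, SE 0.17, 95% interval of the fold 0.99 to 1.63, limma adjusted p = 0.343), and the log2 difference was -0.23 without VTA 3. The other Ugt8 probe set, U07683_at, lay between 1.27 and 18.4 on all arrays and was under the filter.

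**Figure D2:**
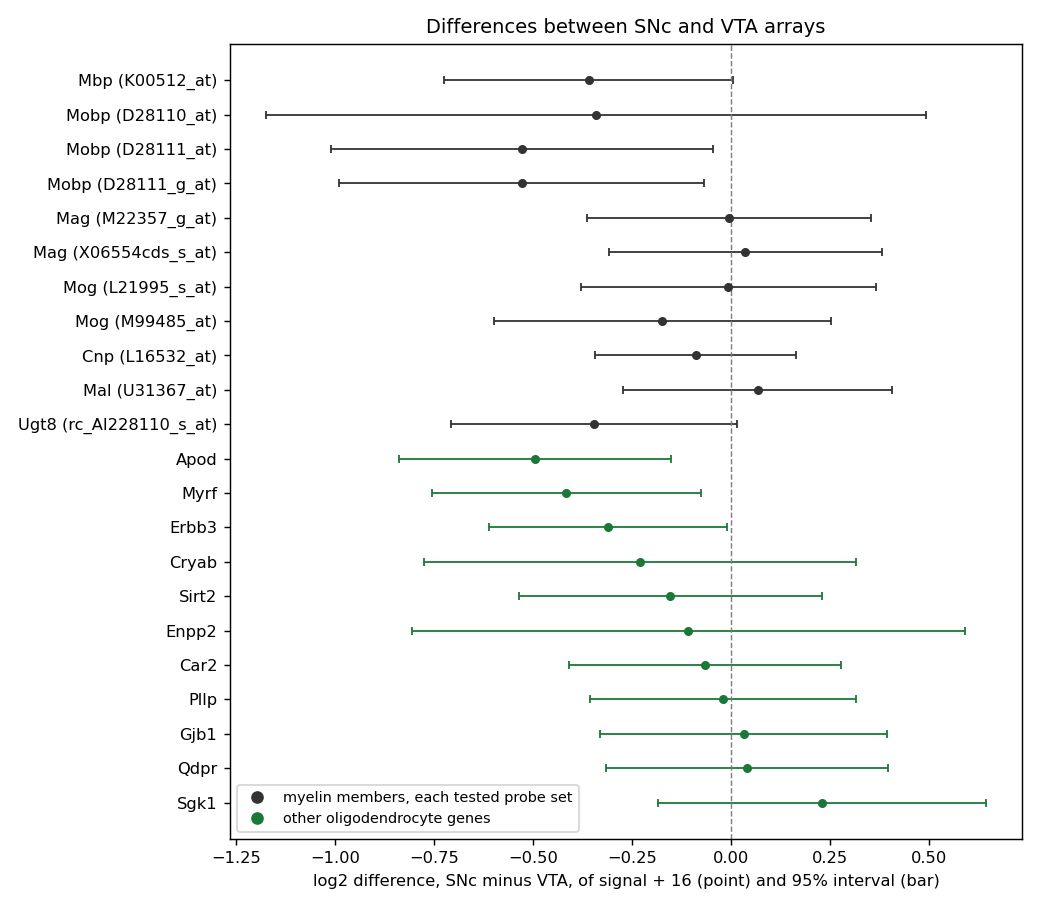
Log2 difference, SNc minus VTA, of signal + 16 (horizontal axis) with its 95% interval from limma, for the 11 tested member probe sets (dark) and the brightest probe set of 11 other oligodendrocyte genes (green). In the deposited scaling 9 of the 11 member probe sets and 8 of the 11 other genes lie left of 0, the side of higher VTA signal, and no adjusted p was under 0.05.

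A further 29 genes of myelinating oligodendrocytes were listed beside the members, and 11 of them could be tested. None was called by limma (0 of 11, beside 2.17% of all genes in either direction and 1.18% higher in VTA), while 3 had an unadjusted p under 0.05, beside 15.5% of all genes. Of the 11, 8 had a negative difference and 3 a positive one, with a median of -0.11. Apod, a lipid-binding apolipoprotein that oligodendrocytes and other glia secrete, had the smallest p. The mean signal was 644 ± 74.8 (SD, n = 8) in SNc and 943 ± 283 (SD, n = 7) in VTA, a log2 difference of -0.50 (SE 0.16, limma adjusted p = 0.135). Its SNc arrays ran from 547.8 to 726.3, and 5 of the 7 VTA arrays lay above them. Myrf, the transcription factor named above, differed by -0.42 (SE 0.16, limma adjusted p = 0.214), with all 7 VTA arrays above the SNc mean. Erbb3, a neuregulin receptor, differed by -0.31 (SE 0.14, limma adjusted p = 0.304), with low mean signals of 39.7 for SNc and 52.7 for VTA. A second Erbb3 probe set, U52530_s_at, was under the filter and not tested. Its lowest and highest signals, 6.79 and 47.1, were both in SNc. Sox10 had a probe set under the filter, at 3.71 to 59.7.

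Oligodendrocyte precursors, the dividing cells from which oligodendrocytes form, were followed by 5 tested genes. Of these, 0 were called by limma (2.17% of all genes) and 0 had an unadjusted p under 0.05 (15.5% of all genes). Of the 5, 3 were negative and 2 positive. Vcan, the proteoglycan versican, had the largest difference, 0.42 (SE 0.32), towards SNc. Pdgfra, the growth factor receptor of these cells, differed by -0.29 (SE 0.26), Ptprz1, a receptor phosphatase, by -0.21 (SE 0.15), and Cspg4, the NG2 proteoglycan, by 0.03 (SE 0.22). Of the genes listed for peripheral myelin, 3 were tested and 1, Pmp22, was called (2.17% of all genes). Pmp22, a tetraspan membrane protein made in many cells besides Schwann cells, ran from 84.8 to 205.9 in SNc with a median of 143.7. In VTA it ran from 189.2 to 320.5 with a median of 223.1. The regions overlapped only in that SNc 2, at 205.9, lay above VTA 6, at 189.2. The signal was 1.55-fold higher in VTA (log2 difference -0.63, SE 0.16, limma adjusted p = 0.0443). The call was lost after quantile normalization, median centring or an offset of 1, with the highest adjusted p, 0.110, under median centring. It was also lost on leaving out any single array other than SNc 2 or SNc 8 (adjusted p from 0.0536 to 0.105). A second, dim Pmp22 probe set gave -0.08 (SE 0.24). The other genes of this list, S100b and Prx, gave -0.13 (SE 0.18) and -0.15 (SE 0.29).

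Genes that supply membrane lipid and genes of the axon that myelin contacts were listed as well. Of 11 tested genes of cholesterol and fatty acid synthesis, each by its brightest probe set, 0 were called by limma, 1 had an unadjusted p under 0.05, and 6 were negative. The share of all genes was 2.17% called, 15.5% at an unadjusted p under 0.05 and 55.6% negative. The gene with an unadjusted p under 0.05 was Fdft1, squalene synthase, and its 4 probe sets went both ways. The brightest, M95591_at, gave -0.34 (SE 0.14, limma adjusted p = 0.250) and M95591_g_at gave -0.22 (SE 0.18), whereas rc_H33426_at gave 0.40 (SE 0.31) and rc_H33426_g_at gave 0.58 (SE 0.24, limma adjusted p = 0.249). Srebf1, a regulator of lipid synthesis genes, differed by 0.39 (SE 0.22) and Scd2, a fatty acid desaturase, by -0.32 (SE 0.19). Every tested probe set of Scd2 and of Cyp51 was negative, whereas those of Fdps went both ways. Dimmer sets of Cyp51 and Scd2 also had an unadjusted p under 0.05 without passing after adjustment. Examples were AB004096_at of Cyp51 at -0.37 (SE 0.12, limma adjusted p = 0.138) and U67995_s_at of Scd2 at -0.47 (SE 0.18, limma adjusted p = 0.220). Of 12 axon and node genes 2 were called (2.17% of all genes) and 3 had an unadjusted p under 0.05 (15.5% of all genes), and 7 were negative. The called genes were neurofilament chains, Nefh higher in SNc (1.08, SE 0.23) and Nefm higher in VTA (-0.69, SE 0.18, limma adjusted p = 0.0487). A dimmer Nefh probe set gave 0.17 (SE 0.24), and the Nefm call was lost in 17 of 26 alternatives, among them on leaving out any single array other than SNc 7 or VTA 8 (adjusted p up to 0.108). Nefl, the light chain, gave -0.35 (SE 0.16, limma adjusted p = 0.290).

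Markers of dopamine neurons and of other cell types give the setting. The summed signal of 6 dopamine neuron genes lay between 18628 and 23006 in SNc and between 15269 and 22369 in VTA. None of the 6 was called by limma (2.17% of all genes), and 2 had an unadjusted p under 0.05 (15.5% of all genes), in opposite directions. Slc6a3, the dopamine transporter, gave 0.34 (SE 0.13, limma adjusted p = 0.193) and Nr4a2, a transcription factor of these neurons, -0.65 (SE 0.26, limma adjusted p = 0.228), while Pitx3 gave -0.25 (SE 0.17). A dimmer Slc6a3 probe set gave 0.12 (SE 0.18), and a dimmer Nr4a2 probe set -0.52 (SE 0.15, limma adjusted p = 0.0906). Of the marker genes tested for astrocytes (7), microglia (4) and vessels and blood (4), 0 were called by limma, and 0 had an unadjusted p under 0.05. The shares of all genes were 2.17% and 15.5%. The smallest p among astrocyte genes were those of Aqp4 at -0.60 (SE 0.31), Fabp7 at -0.64 (SE 0.35) and Slc1a2 at -0.30 (SE 0.21). These 3 were the only negative ones. The other 4 astrocyte genes were positive, and the median over the 7 was 0.01. Ctss, Cx3cr1 and C1qc of microglia gave 0.25 (SE 0.24), -0.21 (SE 0.21) and -0.11 (SE 0.14). Alas2, Hbb and Pecam1 of blood and vessels gave -0.32 (SE 0.19), -0.73 (SE 0.47) and -0.14 (SE 0.15). Of the 9 microglia genes with a probe set, 5 were under the filter, among them Aif1 and Csf1r, which are used to define these cells.

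The co-variation of the myelin genes from array to array was measured next, as a gauge of oligodendrocyte RNA taken along in differing amounts. Region means were removed from log2(signal + 16), so that a difference between SNc and VTA could not produce a correlation, and each gene was taken by its brightest probe set. Over the 15 arrays, all 21 pairs of the 7 genes had a positive Pearson r, from 0.01 to 0.60 with a median of 0.37. Over all pairs of the 3221 genes the median was 0.01, 51.0% were positive, and 12.0% lay above the members' median. Of the 21 pairs, 4 lay above 0.5 and 4 below 0.1. It is given as a description, since the 21 values share the same 15 arrays. Without VTA 3 the median fell to 0.25.

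Mal with Ugt8 (r = 0.60, rho = 0.61), Cnp with Ugt8 (r = 0.59, rho = 0.48) and Mog with Mal (r = 0.57, rho = 0.55) were the closest pairs, and Mbp with Mobp came next (r = 0.56, rho = 0.66). The lowest values each involved Mbp or Mobp, at 0.02 for Mbp with Mog, 0.04 for Mbp with Cnp, 0.05 for Mobp with Mog and 0.01 for Mobp with Ugt8. On SNc 8 the members went apart, with Mobp at -0.87 and Mbp at -0.48 from the SNc mean on the log2 scale but Mog at 0.43 and Ugt8 at 0.41. Mbp was tested against each of the other 6 genes by permuting arrays within their region. Mbp with Mobp had a permutation p of 0.039 for r and 0.0121 for rho, or 0.234 and 0.0725 after adjustment over the 6 pairs, and the other 5 pairs had a permutation p from 0.0961 to 0.956. Without the arrays farthest from the Mbp median once region means were removed, SNc 8 and VTA 8, r was 0.65 for Mobp, 0.47 for Mal and 0.09 for Mog. Without the arrays farthest on the signals themselves, SNc 7 and SNc 8, it was 0.54 for Mobp, 0.84 for Mal and 0.49 for Mog, so the values of Mal and Mog depended on which arrays were left out.

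**Figure D3:**
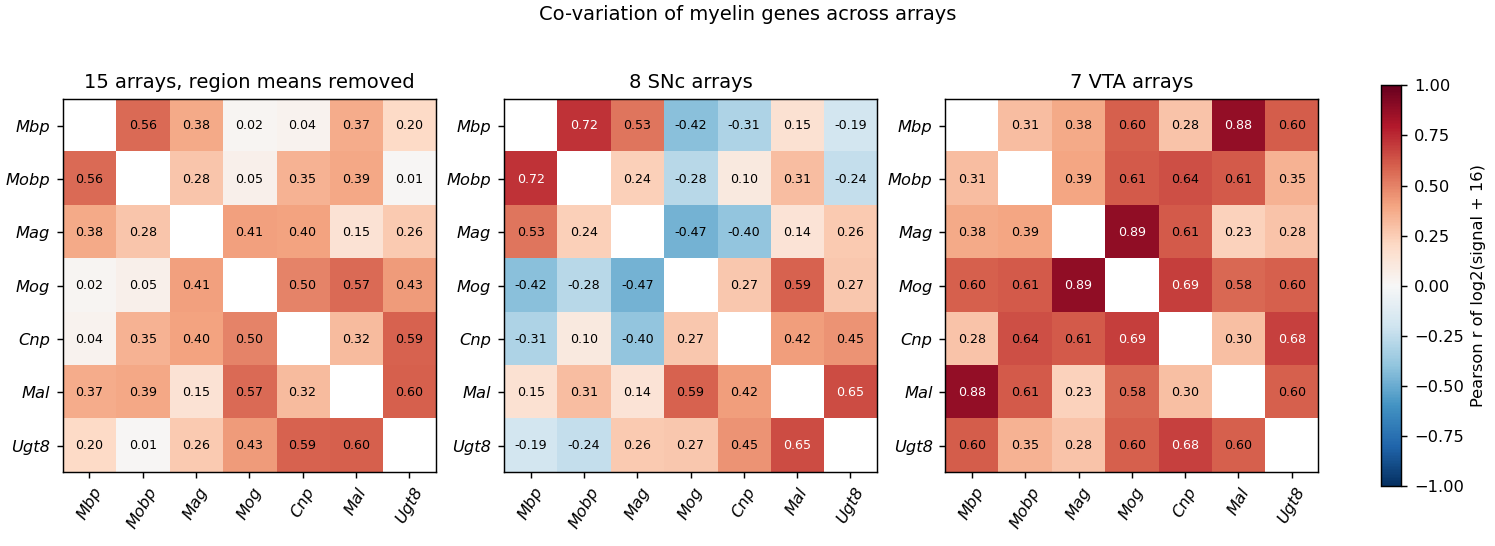
Pearson r between pairs of the 7 myelin genes, as colour and number, over 15 arrays with region means removed (left), the 8 SNc arrays (middle) and the 7 VTA arrays (right). All 21 pairs are positive on the left and on the right, and 14 of 21 in the middle.

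The same pairs were also taken within each region. Within the 7 VTA arrays all 21 pairs were positive, from 0.23 to 0.89, with a median of 0.60. Within the 8 SNc arrays 14 of the 21 were positive, from -0.47 to 0.72, with a median of 0.24. The median over all pairs of genes was 0.01 in each region. Leaving out single arrays, the VTA median ran from 0.43, without VTA 3, to 0.69, and the SNc median from -0.05, without SNc 5, to 0.28, with 0.13 without SNc 2 and 0.14 without SNc 4. Mag with Mog was the pair furthest apart, at 0.89 in VTA and -0.47 in SNc. The difference between the regions was not tested.

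Arrays with high or low myelin signal as a whole were found in both regions. On VTA 3 all 7 genes lay above their VTA mean, and on VTA 4 all 7 lay below it. VTA 5 had 6 of 7 above, and VTA 6 and VTA 8 had 6 of 7 below. In SNc only SNc 5, with 6 of 7 below, and SNc 4, with 6 of 7 above, came near this. As a mean of the 7 genes in SD units, VTA 3 was highest at 1.32 and VTA 4 lowest at -0.93, and the SNc arrays ran from -0.85 to 0.63. Over 15 arrays with region means removed, this mean of the 7 genes showed r of 0.07 (rho 0.03) with the log2 median signal of the array. With the log2 3' to 5' ratio of the actin control r was -0.05 (rho -0.03), and with that of the GAPDH control 0.15 (rho 0.26). Such ratios are read as a sign of RNA integrity, but the amplification of this RNA is not described. The ratios ran from 6.14 to 15.4 for actin and from 2.94 to 6.82 for GAPDH. The highest actin ratio was that of SNc 5, which had the lowest SNc mean of the 7 genes. The part of RNA integrity or of amplification in the co-variation was not tested.

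**Figure D4:**
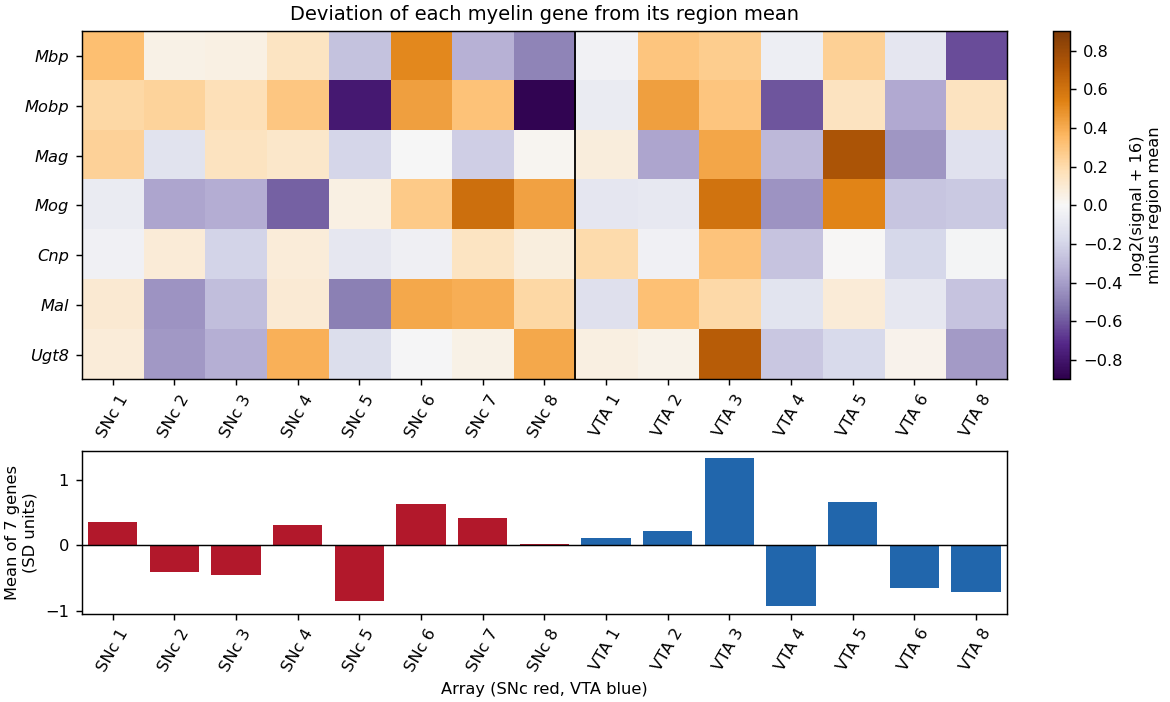
Upper panel, log2(signal + 16) of each of the 7 myelin genes minus its region mean on each array (colour); lower panel, the mean of the 7 genes in SD units (bars, SNc red, VTA blue). VTA 3 is above the region mean for all 7 genes and VTA 4 below it for all 7, while SNc 8 is low for Mobp and Mbp and high for Mog and Ugt8.

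The 10 genes most like the members were ranked by Pearson r with this mean over the 15 arrays, among 3214 other genes. Apod was closest (r = 0.84), followed by S100b, a calcium-binding protein of glia (0.80), Pxn, the adhesion adaptor paxillin (0.79), and Clns1a, a chloride channel regulator (0.77). Pcsk6, Id3, Camk1, Slfn2 and Gjb2 lay between 0.70 and 0.75. Of these, Id3 and Gjb2 followed the mean in VTA only, at 0.97 and 0.91 within VTA but 0.05 and 0.07 within SNc. Pllp, the myelin protein plasmolipin, was the tenth (0.70). Of the 10, Apod and Pllp were on the list of other oligodendrocyte genes. S100b was on the list for peripheral myelin but is not particular to it. They are the highest of 3214 values over the same 15 arrays and are given as a description.

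The other oligodendrocyte genes leaned the same way as the members across arrays. Of the 11, 10 had a positive r with the members' mean and the median was 0.37, while 46.9% of the 3214 other genes were positive, with a median of -0.02. Cryab, a small heat shock protein, was at 0.64, Car2, a carbonic anhydrase, at 0.50, and Sirt2, a deacetylase, at 0.47. Myrf and Erbb3, which had small p between the regions, were at 0.19 and 0.16. Astrocyte genes had 6 of 7 positive (median 0.34) and precursor genes 4 of 5 (median 0.16). Genes of lipid synthesis had 3 of 11 positive (median -0.05), and axon and node genes 4 of 12 (median -0.17). Of the 6 dopamine neuron genes 5 were negative, with Slc6a3 at -0.54 (-0.05 within SNc, -0.74 within VTA). Th, tyrosine hydroxylase, was at -0.15, with 0.51 within SNc and -0.50 within VTA. The part of astrocyte or neuronal RNA in the members' co-variation was not tested.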

How the data were processed

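Neurons laser-captured from rat SNc (8 arrays) and VTA (7) were measured on an Affymetrix rat array. The deposited table holds 1 linear intensity per probe set and array. The 2% trimmed mean of the deposited intensities was 150.2 on each array, so by their values the arrays had been scaled. Software, background step and amplification: not given in the sources used here. The number of arrays limits the precision. The highest correlation between any 2 arrays was 0.973.

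The table has 8799 probe sets, of which 59 controls were left out. The platform annotation gave 7006 of the others a single symbol, 308 several and 1426 none. Of the 7006, 6985 were found by gene identifier in RefSeq's GRCr8 table, which changed 0 symbols.

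Intensities were turned into log2(intensity + 16), the 40% with the lowest mean log2 value were left out, and 5244 probe sets were fitted with limma 3.58.1 in R 4.3.3 (two-sided, Benjamini-Hochberg, threshold 0.05). The offset shrinks the differences of dim probe sets. A gene was taken by its brightest probe set. Correlations with Mbp used 100000 permutations within regions, and the exact test all 6435 splits. The scripts were tested on simulated data.

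Members and lists were chosen with earlier results of these data known. Named genes are all members, Sox10, Pdgfra, Cspg4, listed genes past the threshold or among the 3 with the smallest p of their list, and the 10 most alike; others were named after their values were seen. Another gene of this rule is not reported here. Samples were grouped by title. Same-numbered arrays of both regions had positively correlated deviations in all 7 pairs (0.04 to 0.25), 5 of them over 0.1. Pairing was to be taken only if every pair exceeded 0.1, so the fit without the block was kept; whether the numbers mark a shared animal or day is not known. Alternatives covered scaling, offset, filter, block, array weights, variance model, test, and leaving out arrays.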

Additional observations from a re-analysis of the deposited data

Results flagged for a closer look

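Signals of the 14 member probe sets were examined in each region, 28 groups in all, on the log2(signal + 16) scale, for an array far from the others of its region by Dixon's ratio (gap over range, critical value 0.568 for 7 arrays). Chance flags about 1 group in 20, and 2 were found. On the dimmer Mog probe set, L21995_s_at, VTA 8 was lowest of the 7 VTA arrays at a signal of 89.5, with the next at 167.4 (ratio 0.607 on the log2 scale). On the brighter Ugt8 probe set, rc_AI228110_s_at, VTA 3 was highest of the 7 at 1203, with the next at 767.2 (ratio 0.576 on the log2 scale).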

How the results depend on the processing

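No member probe set and none of the other oligodendrocyte genes was called under any of the 26 alternatives run, which include each array left out, while the count over all probe sets ran from 56 to 184 around 104. With the replicate number as a block, 0 members and 99 probe sets were called and Pmp22 had a limma adjusted p of 0.085. On leaving out arrays, 56 to 115 probe sets were called. Both bright Mobp probe sets, Mbp, Ugt8 and the brighter Mog probe set stayed negative and Mal positive throughout, with D28111_g_at of Mobp from -0.63 to -0.40 Mbp from -0.51 to -0.27, Ugt8 from -0.49 to -0.23, Mog M99485_at from -0.26 to -0.07 and Mal from 0.01 to 0.16. The sign of the differences near 0 turned: Cnp to 0.0036 with median centring; Mog L21995_s_at to 0.025 with quantile normalization and 0.085 with median centring, and -0.16 to 0.063 over single arrays left out; Mag M22357_g_at to 0.025, 0.087, 0.026 (replicate block) and 0.035 (array weights), and -0.076 to 0.12 over arrays left out; Mag X06554cds_s_at from -0.034 to 0.10 over arrays left out. The cause was not tested. The members' median pairwise r of 0.37 was 0.60 in VTA alone, 0.24 in SNc alone, 0.25 to 0.42 over arrays left out, and 0.31 with Spearman's rho. Within SNc arrays it ran from -0.046 to 0.28 and within VTA from 0.43 to 0.69, alternatives chosen after seeing the data. Its jackknife error over arrays was 0.16. The filter at a signal of about 26.3 leaves out 3 of 14 member probe sets and Sox10.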

Other observations

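Some genes followed the members' mean in VTA but not in SNc. They were picked after their values were seen, and the difference between the regions was not tested. Hbb, a beta-globin of red blood cells, had r = 0.98 with the mean of the 7 myelin genes over the 7 VTA arrays and -0.55 over the 8 SNc arrays. Its probe set may read several globin genes. The other vessel and blood genes tested did not follow the mean in VTA, with Alas2 at -0.21, Pecam1 at -0.46 and Flt1 at -0.49. Id3, an inhibitor of basic helix-loop-helix factors, had 0.97 and 0.05. Aqp4, the water channel of astrocytes, had 0.84 and -0.43, and Fabp7, a fatty acid binding protein of glia, 0.84 and -0.01. Aqp4 was dim, with a mean signal of 31.8 in SNc and 63.5 in VTA. The other astrocyte genes tested varied. In VTA and SNc, Glul had 0.45 and 0.12, Slc1a3 0.36 and 0.64, and Sparcl1 0.36 and -0.49. Slc1a2 had -0.39 and 0.65, and Aldoc -0.30 and -0.25. Camk1, a calcium-dependent kinase, was high in both, at 0.77 in VTA and 0.88 in SNc, and Cryab was at 0.64 and 0.63.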
